A study of Taxus mairei and Taxus cuspidata and Taxus x media with 9 samples.

Results

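*T. mairei* was compared with *T. media* and *T. cuspidata* together, unigene by unigene, in fresh twigs of wood and needles. The members were all unigenes of at least 500 bp that carry a gene name, 9619 of 33895 unigenes in the co-assembly, with 6380 distinct gene names. Each species had 3 libraries of poly(A) RNA, so 3 *T. mairei* libraries stood against 6 others. All trees were 3 years old and untreated, and grew in a chamber at 25 °C with 12 h of light. *T. mairei* and *T. cuspidata* are Asian yews, and *T. media* is a garden hybrid that has *T. cuspidata* as a parent, so the 6 other libraries are not from independent lineages. The methods give 5 trees per species but not which trees went into which library, and the p-values below therefore measure the spread between libraries.

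Yews are conifers known for taxol, a diterpenoid made from plastid isoprenoid precursors and induced by jasmonate, the wound hormone. Their twigs combine photosynthetic needles with lignified wood, and the annotated genes of such a sample cover light capture, cell walls, phenolic and terpenoid defense compounds, and the stress and hormone responses that control them. A unigene is a contig group of a transcriptome assembled without a genome. As reads of 3 species were assembled together, copies of a gene that differ in sequence between species can lie on separate unigenes of the same name, and totals over a gene name were therefore taken beside the values of single unigenes.

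A unigene was taken as separated when all 3 *T. mairei* libraries lay above, or all below, the other 6 in TPM (read number divided by unigene length, set to a fixed sum per library). A unigene was taken as called when the edgeR quasi-likelihood test on the counts gave a Benjamini-Hochberg adjusted p below 0.05 and an absolute log2 fold change above 1 for *T. mairei* against the mean of the 2 other species. Counts were present for 8 of the 9 libraries, with 32783233 to 44821305 counts each, and *T. mairei* entered this test with 2 libraries. On the deposited TPM, 1330 of the 9619 named unigenes (13.8%) were separated and higher in *T. mairei*, and 4875 (50.7%) were separated and lower. Over all unigenes the shares were 18.7% and 34.7%. The edgeR test called 1915 named unigenes higher (20.0%) and 2060 lower (21.5%) of the 9593 that passed its filter on low counts, beside 26.4% and 19.7% of all unigenes tested.

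The split on TPM depends on the scale. Unigenes under 500 bp held 40.0 to 41.0% of the TPM in *T. mairei* and 20.1 to 26.1% in the other libraries, which leaves less of the fixed total for longer unigenes. The named unigenes held 31.9 to 32.5% in *T. mairei* and 40.8 to 49.7% in the others. The median log2 difference of all unigenes tested was -0.598 on log2(TPM + 1) and 0.01 in edgeR after TMM normalization. When the TPM were scaled by their own TMM factors (0.7113 to 0.7474 in *T. mairei* and 1.1088 to 1.251 in the others), 2541 named unigenes (26.4%) were separated and higher and 2646 (27.5%) lower. The following account is of the unigenes that were both separated on TPM and called by edgeR in the same direction, 1296 higher in *T. mairei* (13.5%) and 1940 lower (20.2%). "Higher" and "lower" are used below for these unigenes only, and log2 fold changes are those of edgeR with their SE.

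**Figure D1:**
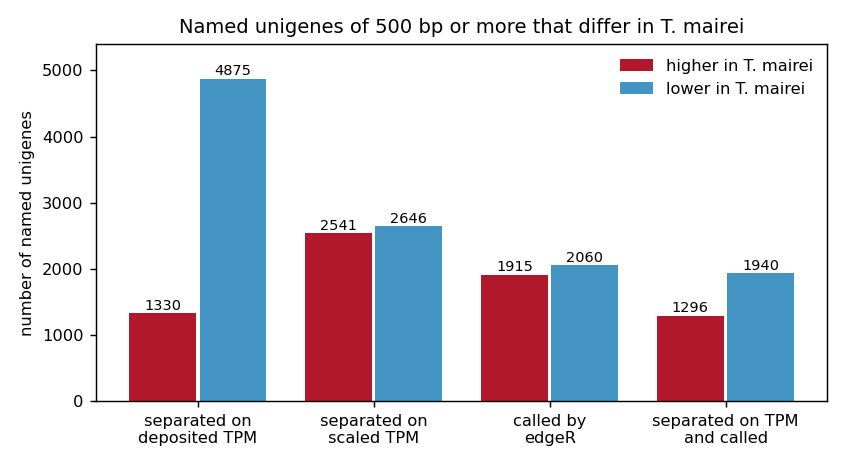
Number of named unigenes of 500 bp or more (vertical axis) that were higher or lower in *T. mairei* than in the 6 other libraries, by criterion. The deposited TPM gave 1330 higher and 4875 lower, the scaled TPM 2541 and 2646, edgeR 1915 and 2060, and separation with the edgeR call 1296 and 1940.

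The 2 sets differed in how they were built up. Of the 1296 higher unigenes, 1228 were called against *T. media* and against *T. cuspidata* alone. All 1296 stayed separated on the scaled TPM by construction, as the scaling raises *T. mairei* against the others. Of the 1940 lower unigenes, 1415 were called against each species and 1751 were separated on the scaled TPM. An absolute log2 fold change above 5 was found for 507 higher unigenes (39.1%) and for 164 lower ones (8.45%). At least 0.5 TPM in all 9 libraries was reached by 805 higher unigenes (62.1%) and by 1612 lower ones (83.1%). In 101 of the higher unigenes the 6 other libraries were all at 0, and in 40 of the lower ones the 3 *T. mairei* libraries were. The higher unigenes had a median length of 1097 bp, the lower ones 1306 bp and all members 1355 bp. Among the 2417 unigenes of both sets with at least 0.5 TPM throughout, the fold change of the counts lay within 1 log2 unit of the same contrast of scaled TPM for 2391 (98.9%). Counts and TPM come from the same libraries, and these unigenes were selected for the same direction in both. This share was thus largely fixed by the choice and is no independent check.

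**Figure D2:**
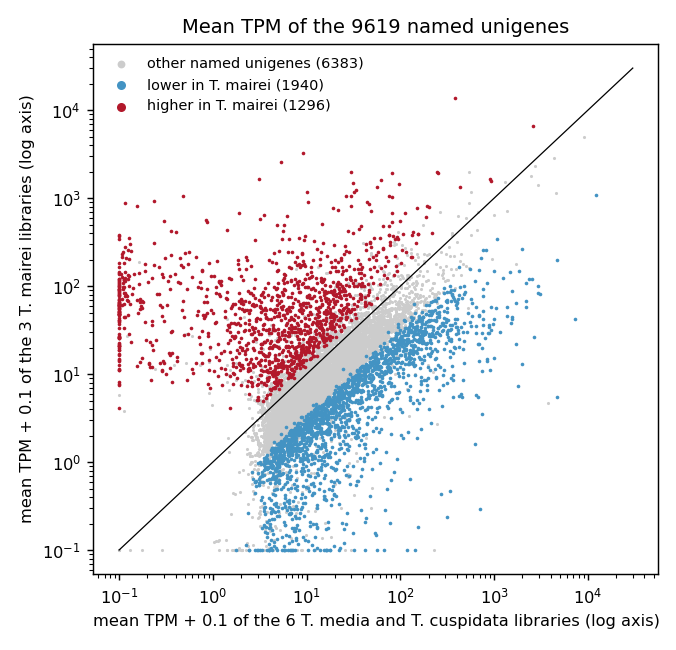
Mean TPM + 0.1 of the 3 *T. mairei* libraries (vertical log axis) against that of the 6 other libraries (horizontal log axis), one point per named unigene. The 1296 higher unigenes reach the left edge, where the other libraries are at or near 0, and the 1940 lower ones run as a band below the line of equal values, mostly with reads in all 9 libraries.

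Many names occurred in both sets. The gene name was shared with another unigene in 1018 of the higher and 1268 of the lower unigenes, and 409 names had unigenes in both directions. In 420 higher unigenes (32.4%) and 503 lower ones (25.9%) another unigene of the same name went the other way. After summing the scaled TPM over each name, the total was separated in the same direction for 835 of the 1018 higher unigenes with a shared name (82.0%) and in the other direction for 25. For the lower unigenes with a shared name, the total was separated in the same direction for 544 of 1268 (42.9%) and in the other direction for 267. These shares depend on the scale. On the deposited TPM, the total went the same way for 598 of the higher and 817 of the lower unigenes with a shared name. Of the 7483 gene-name totals over unigenes of any length, 1069 (14.3%) were separated and higher on the deposited TPM and 3393 (45.3%) lower, and on scaled TPM the counts were 2169 (29.0%) and 1656 (22.1%). Of the 2861 names with at least 2 unigenes, 19.6% were higher and 39.9% lower on the deposited TPM, and 37.6% and 18.7% on the scaled TPM.

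UBC5A, a ubiquitin-conjugating enzyme, shows such a pair. Unigene comp20776_c0 had 1222, 901 and 1025 TPM in *T. mairei*, 0.41, 0.34 and 0.13 TPM in *T. media* and 0.58, 0.36 and 0.43 TPM in *T. cuspidata*. Unigene comp24241_c0 had 80.0, 64.4 and 66.4 TPM in *T. mairei*, 679, 709 and 710.2 TPM in *T. media* and 447, 404 and 435 TPM in *T. cuspidata*, the reverse order. The total over the name, taken after these values were seen, was 1302, 965 and 1092 TPM in *T. mairei*, 679, 709.8 and 710.3 TPM in *T. media* and 448, 405 and 435 TPM in *T. cuspidata*, with *T. mairei* above the 6 others. LDJ2, a DnaJ co-chaperone, was split in the same way, with 1263 to 1598 TPM in *T. mairei* and 58.1 to 150.2 TPM in the 6 others for comp17210_c0 and 10.5 to 12 TPM in *T. mairei* and 543 to 1243 TPM in the 6 others for comp26538_c0. Its total ran from 1273 to 1610 TPM in *T. mairei*, 600.6 to 774.9 TPM in *T. media* and 1300 to 1339 TPM in *T. cuspidata*, and was separated and higher on the scaled TPM only. The aquaporin PIP1.4 had a unigene with 255 to 386 TPM in *T. mairei*, 141 to 224 TPM in *T. media* and 0 to 1.41 TPM in *T. cuspidata* (comp10264_c0, log2 fold change 5.65 ± 0.72, not called against *T. media*) and another with 4.71 to 8.16 TPM in *T. mairei*, 246 to 318 TPM in *T. media* and 570.3 to 636 TPM in *T. cuspidata* (comp24312_c0, -5.22 ± 0.28). The PIP1.4 total was separated and lower on the deposited TPM and not separated on the scaled TPM.

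Among unigenes with at least 0.5 TPM in every library, the 8 largest fold changes included a jasmonate repressor, 2 ethylene-responsive factors and a calcium sensor. TIFY9 (comp22595_c0, 1069 bp), a JAZ-type repressor of jasmonate signaling in *Arabidopsis*, had 2748, 3527 and 3572 TPM in *T. mairei*, 22.5, 9.09 and 8.15 TPM in *T. media* and 6.67, 5.48 and 1.82 TPM in *T. cuspidata*. Its log2 fold change was 8.76 ± 0.47 (edgeR, adjusted p = 3.3e-06), and the lowest *T. mairei* library lay far above the highest of the others. A second TIFY9 unigene, comp17450_c0, went the same way with 266 to 445 TPM in *T. mairei* and 4.18 to 9.8 TPM in the 6 others. GOLS4 (comp28506_c0), a galactinol synthase that makes the precursor of raffinose sugars, had 599, 610.4 and 719 TPM in *T. mairei*, 2.05, 2.89 and 1.24 TPM in *T. media* and 4.31, 2.51 and 7.44 TPM in *T. cuspidata*. The fold change was 8.63 ± 0.24 (adjusted p = 4.1e-07), and the other 2 species overlapped each other.

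Unigenes of 2 ethylene-responsive factors, DNA-binding proteins of the AP2/ERF family, followed. ERF016 (comp28301_c0) had 213, 229 and 145 TPM in *T. mairei*, 3.56, 5.26 and 2.37 TPM in *T. media* and 0.74, 0.77 and 0.64 TPM in *T. cuspidata*, a log2 change of 8.03 ± 0.24 (adjusted p = 5.2e-07). ERF9 (comp28012_c1) had 562, 646 and 675 TPM in *T. mairei*, 16.9, 5.22 and 7.76 TPM in *T. media* and 1.34, 4.29 and 1.1 TPM in *T. cuspidata*, a change of 7.98 ± 0.45 (adjusted p = 4.1e-06). At2g25060 (comp24325_c1), an early nodulin-like protein of the cell surface, had 536, 567 and 643 TPM in *T. mairei*, 4.84, 4.42 and 2.71 TPM in *T. media* and 4.34, 1.22 and 1.17 TPM in *T. cuspidata* with a change of 8.20 ± 0.44. The calmodulin-like calcium sensor CML25 (comp28644_c0) had 90.5 to 142 TPM in *T. mairei* and 0.66 to 1.4 TPM in the 6 others, a change of 7.54 ± 0.27. PCR2 (comp25089_c0), named for plant cadmium resistance, had 782 to 1552 TPM in *T. mairei* and 17.5 to 33 TPM in the 6 others and a change of 7.36 ± 0.46. The aldo-keto reductase COR2 (comp22634_c0) had 388 to 583 TPM in *T. mairei* and 1.81 to 14.1 TPM in the 6 others and a change of 7.18 ± 0.33. In all 8 no library of the other yews exceeded 33.0 TPM, and the gene-name total was separated in the same direction on scaled TPM. *T. media* lay above *T. cuspidata* in every library of ERF016, ERF9 and COR2.

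**Figure D3:**
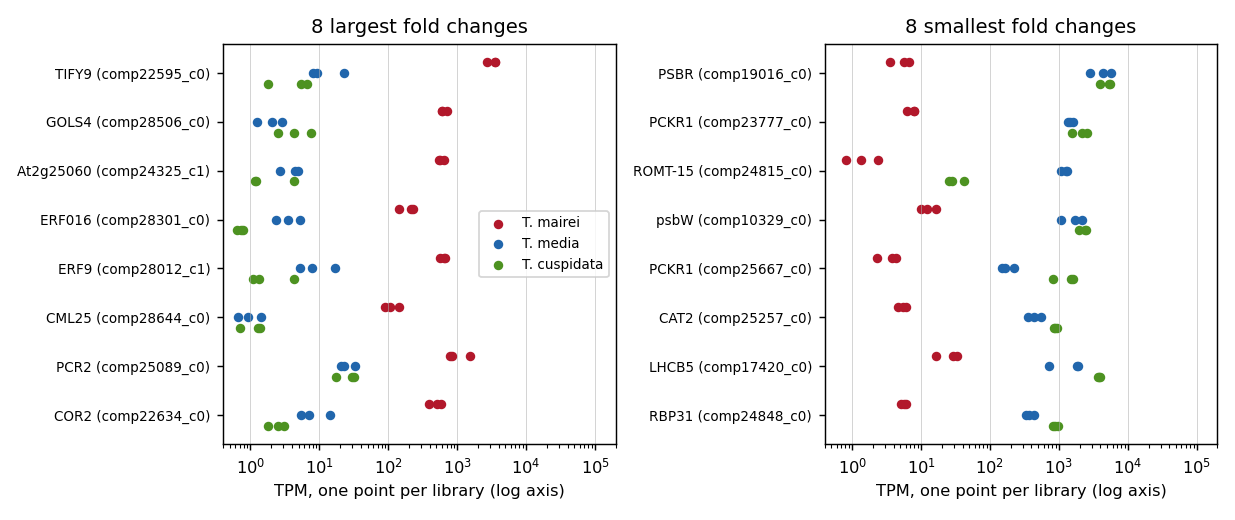
TPM of the 8 unigenes with the largest and the 8 with the smallest log2 fold change among those with at least 0.5 TPM in all 9 libraries (horizontal log axis), one point per library and one colour per species. No *T. mairei* point falls within the range of the 6 others, and TIFY9 (2748 to 3572 TPM) and PSBR (3.56 to 6.77 TPM) mark the ends.

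The next 4 unigenes were chosen after their values were seen, for their abundance. At4g27130 (comp20866_c0), a homolog of the translation initiation factor SUI1, had 17531, 13733 and 9363 TPM in *T. mairei*, 239.6, 471 and 534 TPM in *T. media* and 135, 486 and 415 TPM in *T. cuspidata*, a log2 change of 6.04 ± 0.46 (adjusted p = 1.9e-05), and was the most abundant of the higher unigenes. The polyubiquitin UBI11 (comp26536_c0) had 5754, 5907 and 8144 TPM in *T. mairei*, 3178, 2972 and 3073 TPM in *T. media* and 2105, 2047 and 2110.0 TPM in *T. cuspidata*, a change of 2.63 ± 0.11. RAB16B (comp28909_c1), a dehydrin that accumulates in dry or cold plant tissue, had 2331, 1581 and 2004 TPM in *T. mairei*, 23.8, 15.3 and 16.5 TPM in *T. media* and 53.1, 29.6 and 39.9 TPM in *T. cuspidata*, a change of 6.82 ± 0.25, but its name total over 2 unigenes (2181 to 3219 TPM in *T. mairei* and 68 to 3618 TPM in the 6 others) was separated on neither scale. LTI6B (comp24468_c0), a small membrane protein induced by low temperature in rice, had 1527 to 2395 TPM in *T. mairei* and 39.6 to 135 TPM in the 6 others, a change of 5.06 ± 0.35.

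Gene-name totals over at least 2 unigenes join the reads that fell on different unigenes of a name, and their 6 highest ratios are given here. They still depend on unigene length, as the same reads give more TPM on a shorter unigene. Unigenes under 500 bp, which the totals include, held 40.0 to 41.0% of the TPM in *T. mairei* and 20.1 to 26.1% in the others. Unigenes of a protein under different names stay apart in these totals, as for RCA1 and RCA below. The highest ratio was that of AGP22, an arabinogalactan peptide of the cell wall, with 1452, 1923 and 2196 TPM in *T. mairei*, 9.04, 7.99 and 5.3 TPM in *T. media* and 5.07, 1.7 and 2.08 TPM in *T. cuspidata*. TIFY9 followed with a total of 3014, 3839 and 4017 TPM in *T. mairei*, 32.3, 16.3 and 14.3 TPM in *T. media* and 12.1, 11.2 and 6.0 TPM in *T. cuspidata*. SAP12, a zinc finger protein of the stress-associated family, summed to 189 to 333 TPM in *T. mairei* and 1.21 to 9.16 TPM in the 6 others. The small heat shock proteins HSP16.9C and HSP19.0 summed to 70.8 to 207 TPM in *T. mairei* and 1.94 to 3.67 TPM in the 6 others and to 82.2 to 249.6 TPM in *T. mairei* and 2.05 to 6.16 TPM in the 6 others, with *T. mairei* replicate 3 the highest library of both. ZAT9, a zinc finger repressor, summed to 366 to 476 TPM in *T. mairei* and 5.82 to 20.6 TPM in the 6 others. The log2 ratios of mean TPM ran from 5.09 (ZAT9) to 8.48 (AGP22), and each was larger on scaled TPM because the scaling raises *T. mairei*.

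Transcription factors and immunity genes were the lists of regulators with more higher than lower unigenes. Of 252 named unigenes with the GO term for DNA-binding transcription factor activity, 67 (26.6%) were higher and 38 (15.1%) lower, beside 13.5% and 20.2% of all members, with a median log2 fold change of 0.52 against -0.06 over all members tested. Their summed TPM, over unigenes of any length, were 9618, 10034 and 9686 in *T. mairei*, against 5424 to 6215 in the 6 others. Besides ERF9, the most abundant higher members were ERF014 (comp21763_c0) and DREB2C (comp29666_c0), which belong to the AP2/ERF family too. ERF014 had 404, 525 and 83.6 TPM in *T. mairei*, 3.13, 1.8 and 1.78 TPM in *T. media* and 5.26, 1.98 and 2.12 TPM in *T. cuspidata*, a change of 6.72 ± 0.36 with *T. mairei* replicate 3 far below the other 2. DREB2C, an activator of drought and heat genes in *Arabidopsis*, had 317, 273 and 329 TPM in *T. mairei*, 2.59, 0.4 and 1.52 TPM in *T. media* and 122, 79.4 and 74.1 TPM in *T. cuspidata*. Its change was 8.46 ± 0.49 against *T. media* and 1.71 ± 0.38 against *T. cuspidata*. The most abundant lower factors were RAV2 (comp29220_c1) with 7.03 to 9.27 TPM in *T. mairei*, 40.4 to 43.8 TPM in *T. media* and 271 to 324 TPM in *T. cuspidata*, and the homeobox-leucine zipper proteins HOX4 (comp17519_c0, 6.24 to 8.65 TPM in *T. mairei*, 82.7 to 89.5 TPM in *T. media* and 173 to 336 TPM in *T. cuspidata*) and HOX16 (comp23412_c0, 7.95 to 11.1 TPM in *T. mairei*, 141 to 149 TPM in *T. media* and 90.5 to 102 TPM in *T. cuspidata*).

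Of 142 named unigenes annotated to defense response, 58 (40.8%) were higher and 29 (20.4%) lower, with a median log2 fold change of 0.72. With the name total in the same direction on scaled TPM there were 52 higher and 11 lower. Their summed TPM were 24627, 34099 and 22604 in *T. mairei*, 12665 to 19344 in *T. media* and 8983 to 12060 in *T. cuspidata*. The TIFY9 unigene comp22595_c0 is on this list too and gave 2748, 3527 and 3572 TPM of the *T. mairei* sums. Without it, *T. mairei* replicate 3 would no longer lie above *T. media* replicate 1. The chitinase CHN48 (comp20685_c0), an enzyme that degrades fungal cell walls, had 2089.7, 2802 and 1109 TPM in *T. mairei*, 396, 259 and 215 TPM in *T. media* and 172, 161 and 258 TPM in *T. cuspidata*, a log2 change of 4.02 ± 0.26 (adjusted p = 7.7e-06). A second chitinase, Cht6 (comp24618_c0), had 1072, 2011 and 474 TPM in *T. mairei*, 36, 12 and 11.9 TPM in *T. media* and 0.32, 0.13 and 0 TPM in *T. cuspidata*, a change of 6.99 ± 0.80 against *T. media*. In both the *T. mairei* libraries differed from each other by more than 2 times, with replicate 2 the highest. The antimicrobial peptide snakin SN2 (comp24703_c0) was the most abundant lower member, with 0.96, 0.08 and 0.05 TPM in *T. mairei*, 328, 484 and 422 TPM in *T. media* and 326, 263 and 221 TPM in *T. cuspidata*, and the total over its 4 unigenes (5.47 to 19.9 TPM in *T. mairei* and 256 to 1201 TPM in the 6 others) went the same way. Of 46 unigenes of the plant-pathogen interaction pathway, 18 (39.1%) were higher and 6 (13%) lower. Counting any length, 28 of the 65 unigenes of this list were annotated as calmodulin and 12 as the chaperone HtpG. The list thus counts a few families many times. Of its 7 KEGG ortholog totals, 2 were higher and 1 lower on deposited TPM, and 5 and 1 on scaled TPM. CAM6 (comp19285_c0), a calcium sensor used well beyond immunity, was the most abundant higher member. It had 1436 to 1709.8 TPM in *T. mairei* and 719 to 1318 TPM in the 6 others, a small gap with a change of 1.43 ± 0.15, and its call was lost in limma on the deposited TPM, where the log2 difference was 0.77.

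**Figure D4:**
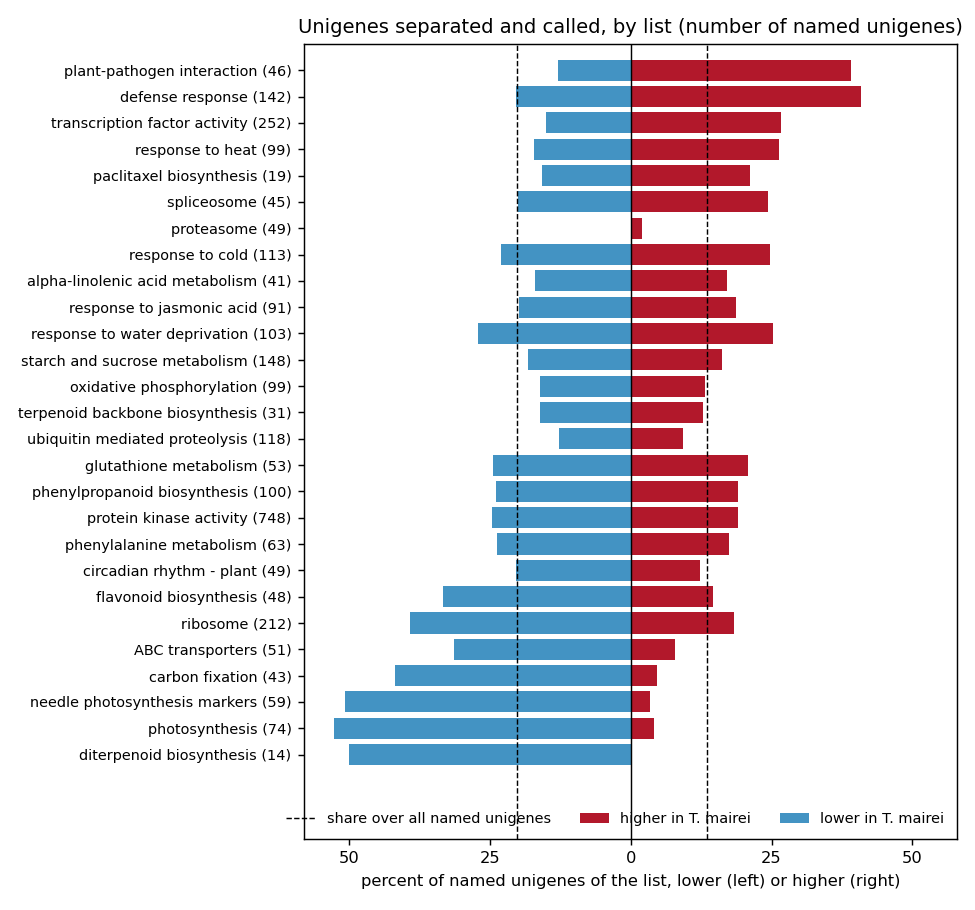
Percent of the named unigenes of each list that were higher (bars to the right) or lower (bars to the left) in *T. mairei*, with the number of named unigenes in brackets and dashed lines at the shares over all named unigenes, 13.5% higher and 20.2% lower. Plant-pathogen interaction and defense response lie at the top with 39.1 and 40.8% higher, and photosynthesis, with 52.7% lower, and diterpenoid biosynthesis, with 7 of 14 lower, at the bottom.

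The lists of abiotic stress moved in both directions, with higher shares above the 13.5% of all members. Response to heat had 26 higher (26.3%) and 17 lower (17.2%) of 99 unigenes. Response to cold had 28 (24.8%) and 26 (23.0%) of 113, and response to water deprivation 26 (25.2%) and 28 (27.2%) of 103. The lower share of all members was 20.2%. Heat shock proteins of the 70 kDa family, chaperones that refold proteins, stood on both sides of the heat list. MED37C (comp28649_c0) had 1467, 1356 and 1633 TPM in *T. mairei*, 38.7, 36.5 and 33.8 TPM in *T. media* and 4.74, 30.4 and 41.5 TPM in *T. cuspidata*, a log2 change of 6.74 ± 0.71. MED37E (comp28706_c1) went the other way with 37, 55.9 and 3.05 TPM in *T. mairei*, 185, 214 and 223 TPM in *T. media* and 2228, 1283 and 1390.1 TPM in *T. cuspidata*. Its change was -1.46 ± 0.30 against *T. media* and -4.51 ± 0.35 against *T. cuspidata*, and its name total was not separated. The total over the 7 MED37C unigenes was 2201 to 2929.8 TPM in *T. mairei* and 471 to 852 TPM in the 6 others. Of 45 spliceosome unigenes 11 were higher and 9 lower, and the 3 most abundant on either side were chaperones of this family. AKR4C9, an aldo-keto reductase that detoxifies reactive aldehydes, led the cold and drought lists with 1053 to 1675 TPM in *T. mairei* and 301 to 595 TPM in the 6 others for comp29991_c1, and comp29597_c1 reached 699 to 881 TPM in *T. mairei* with at most 0.29 TPM elsewhere. Lower members of these lists were RBG7 (comp25178_c0), a glycine-rich RNA-binding protein with 43.9 to 46 TPM in *T. mairei*, 623 to 829 TPM in *T. media* and 1824 to 2109 TPM in *T. cuspidata*, and the xyloglucan-modifying enzyme XTH6 (comp28720_c1), with 14.2 to 46.5 TPM in *T. mairei*, 991 to 1672 TPM in *T. media* and 64.9 to 88.5 TPM in *T. cuspidata*, which was not separated on scaled TPM.

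Jasmonate genes were nearly even by count, with a higher share above that of all members. Of 91 unigenes annotated to the response to jasmonic acid, 17 (18.7%) were higher and 18 (19.8%) lower, beside 13.5% and 20.2% of all members. The median log2 fold change was -0.09 against -0.06 over all members tested. With the name total in the same direction on scaled TPM there were 13 higher and 9 lower. The summed TPM of the list were 5659, 6533 and 6634 in *T. mairei*, above 2589 to 3565 in the 6 others. The TIFY9 unigenes made up 3014, 3839 and 4017 TPM of the *T. mairei* sums. Lower members were VTC2 (comp26170_c0), an enzyme of vitamin C synthesis, with 26.9 to 31.2 TPM in *T. mairei* and 213 to 283 TPM in the 6 others, and the gibberellin repressor RGL2 (comp30049_c0), with 23.3 to 30.1 TPM in *T. mairei*, 137 to 148 TPM in *T. media* and 57.6 to 67.3 TPM in *T. cuspidata* and a log2 fold change of only -0.47 ± 0.14 against *T. cuspidata*.

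In jasmonate synthesis from alpha-linolenic acid, 7 unigenes (17.1%) were higher and 7 (17.1%) lower of 41, beside 13.5% and 20.2% of all members. The same enzyme steps stood on both sides. Lipoxygenases add oxygen to the fatty acid in the opening step. LOX3 (comp19779_c0) had 86.9, 131 and 108 TPM in *T. mairei*, 3.95, 3.39 and 4.11 TPM in *T. media* and 4.05, 4.34 and 2.91 TPM in *T. cuspidata*, a log2 change of 5.51 ± 0.19 (adjusted p = 6.4e-07). LOX3.1 (comp26045_c0) had 62.9 to 65.7 TPM in *T. mairei* and 3.68 to 5.92 TPM in the 6 others, a change of 4.36 ± 0.14. LOX5 (comp30117_c0) had 7.87, 7.95 and 26.4 TPM in *T. mairei*, 887, 1009.6 and 1208 TPM in *T. media* and 643, 644 and 685 TPM in *T. cuspidata*, a change of -5.90 ± 0.28 (adjusted p = 1.8e-06). LOX1.1 (comp30080_c0) was lower as well, with 8.72 to 10.1 TPM in *T. mairei*, 199 to 239.8 TPM in *T. media* and 67.4 to 70.8 TPM in *T. cuspidata*. CYP74A, the allene oxide synthase of the next step, was higher on comp28035_c0 (54 to 55.3 TPM in *T. mairei* and 19.3 to 28.6 TPM in the 6 others) and lower on comp25282_c0 (3.88 to 14.5 TPM in *T. mairei* and 103 to 289 TPM in the 6 others). Its name total was lower, at 63.7 to 70.2 TPM in *T. mairei* and 122 to 350.3 TPM in the 6 others. Without *T. media* replicate 1, the higher unigenes of this pathway numbered 11.

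Light-harvesting and photosystem unigenes were lower as a group. Of 74 named unigenes of photosynthesis and its antenna proteins, 39 (52.7%) were lower and 3 (4.05%) higher, and the median log2 fold change was -2.31. The summed TPM of the pathway were 8935, 6534 and 10690 in *T. mairei*, 28976, 58099 and 50906 in *T. media* and 75222, 89910 and 87042 in *T. cuspidata*. The 3 species thus did not overlap, and *T. media* replicate 1 was the lowest of its species. Summed over KEGG orthologs, which joins unigenes of the same protein, 25 of 50 were lower on scaled TPM and 1 higher, beside 23.7% lower and 30.6% higher of all 2095 orthologs (52.7% and 11.9% on the deposited TPM). PSBR (comp19016_c0), a small subunit of photosystem II, had 5.74, 3.56 and 6.77 TPM in *T. mairei*, 2852, 5712 and 4296 TPM in *T. media* and 3958, 5506 and 5361 TPM in *T. cuspidata*, a change of -9.29 ± 0.53 (adjusted p = 4.4e-06) the lowest among unigenes with at least 0.5 TPM in every library. The total over its 4 unigenes was smaller in contrast, with 204, 128 and 294 TPM in *T. mairei*, 3120.5, 6437 and 4874 TPM in *T. media* and 5135, 7034 and 6864 TPM in *T. cuspidata*, and still not overlapping. PsbW (psbW, comp10329_c0), also of photosystem II, had 9.97 to 16.6 TPM in *T. mairei* and 1076 to 2507 TPM in the 6 others. PSAL (comp20680_c0), a photosystem I subunit, had 60.3 to 99.1 TPM in *T. mairei*, 1285 to 2130.1 TPM in *T. media* and 3529.6 to 4905 TPM in *T. cuspidata*, a change of -4.63 ± 0.34. The chlorophyll-binding antenna protein CAB1B (comp25139_c0) had 139 to 259 TPM in *T. mairei*, 1529 to 3644 TPM in *T. media* and 5657 to 7069 TPM in *T. cuspidata*, a change of -4.02 ± 0.43, and its name total was lower on deposited TPM and not separated on scaled TPM.

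LHCB5, a minor antenna protein, had unigenes on both sides. Unigene comp17420_c0 had 28.8, 16.4 and 32.8 TPM in *T. mairei*, 711, 1904 and 1807 TPM in *T. media* and 3883, 3905 and 3712 TPM in *T. cuspidata*, a log2 change of -6.06 ± 0.56. Unigene comp14838_c0 had 358, 230.1 and 446 TPM in *T. mairei*, 8.34, 12.6 and 8.06 TPM in *T. media* and 0.33, 1.13 and 1.49 TPM in *T. cuspidata*, a change of 8.69 ± 0.44 in the opposite direction. The total over the name was 387, 247 and 479 TPM in *T. mairei*, 727, 1917 and 1815 TPM in *T. media* and 3883, 3906 and 3713 TPM in *T. cuspidata*. It was separated and lower on the deposited TPM and not separated on the scaled TPM. PSAF, a photosystem I subunit, was higher on a 618 bp unigene (comp6673_c0, 159 to 331 TPM in *T. mairei* and 0 to 1.33 TPM in the 6 others) while its name total was lower (239.7 to 486 TPM in *T. mairei* and 1121 to 3256 TPM in the 6 others).

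Carbon fixation showed the same direction. Of 43 named unigenes, 18 (41.9%) were lower and 2 (4.65%) higher, with a median log2 fold change of -0.97, and the summed TPM were 5140 to 6663 in *T. mairei*, 19344 to 27619 in *T. media* and 30156 to 35958 in *T. cuspidata*. The small subunit of Rubisco, RBCS (comp25270_c0), was the most abundant lower unigene of all members. It had 1035, 757 and 1429.6 TPM in *T. mairei*, 9976, 14275 and 11781 TPM in *T. media* and 11129, 12936 and 12595 TPM in *T. cuspidata*, a log2 change of -3.10 ± 0.27 (adjusted p = 3.6e-05). The aldolase FBA2 (comp27214_c1) of the Calvin cycle had 50.7 to 114 TPM in *T. mairei*, 1165 to 2093 TPM in *T. media* and 3837 to 4562 TPM in *T. cuspidata*, a change of -4.62 ± 0.38. GAPA (comp15717_c0), the plastid glyceraldehyde-3-phosphate dehydrogenase, had 22.9 to 51.9 TPM in *T. mairei*, 440.3 to 1058 TPM in *T. media* and 2007 to 2466 TPM in *T. cuspidata*, a change of -4.75 ± 0.46. Rubisco activase was lower under the name RCA1, with a total of 18.2 to 25.5 TPM in *T. mairei* and 1029 to 2344 TPM in the 6 others. A short unigene named RCA (comp38336_c0, 503 bp) had 422, 259 and 465 TPM in *T. mairei* and 0 in all 6 others, and the total over the RCA name was 706, 473 and 811 TPM in *T. mairei*, 645, 733 and 631 TPM in *T. media* and 12.6, 22.2 and 13.7 TPM in *T. cuspidata*, not separated on the deposited TPM. The carbonic anhydrase CA1 (comp26828_c1), listed under response to cold, was lower with 92.1 to 152 TPM in *T. mairei*, 1396 to 2749.9 TPM in *T. media* and 2207 to 3439 TPM in *T. cuspidata*. Without *T. mairei* replicate 3, the higher unigenes numbered 4. That library entered only the separation, so leaving it out could only add unigenes. The 2 higher unigenes were a malate dehydrogenase (MMDH, comp28710_c0) and a triosephosphate isomerase (TPI, comp21511_c0), enzymes that also serve respiration. The TPI total over 2 unigenes was lower on both scales, with 67.5 to 77.9 TPM in *T. mairei* and 158 to 361 TPM in the 6 others.

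**Figure D5:**
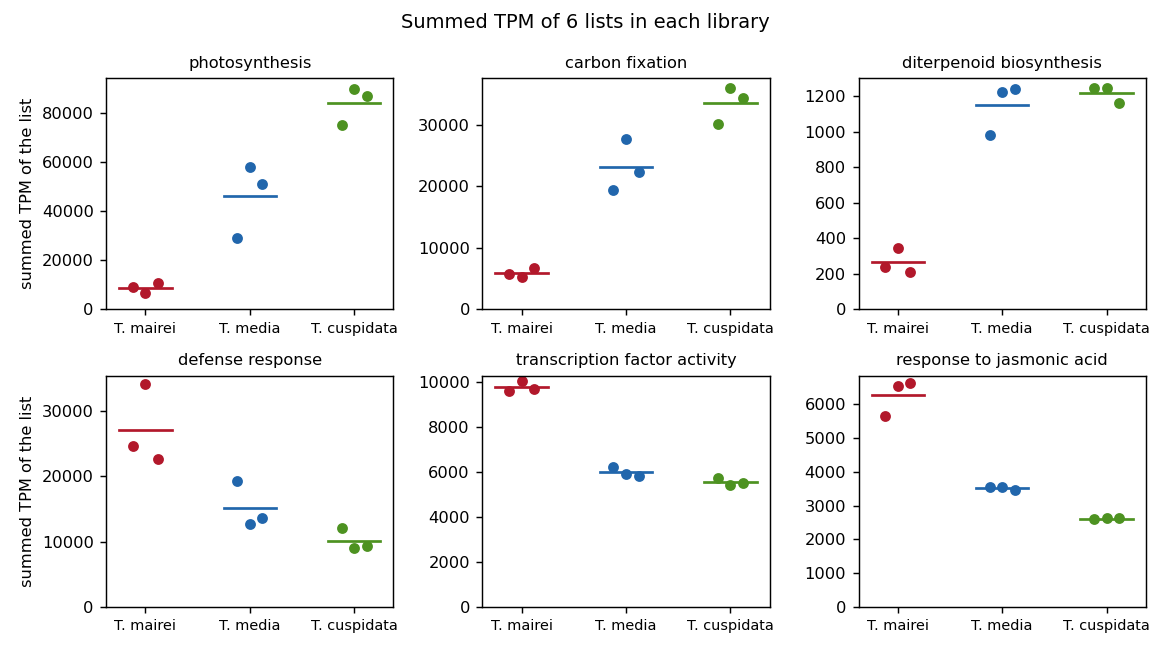
Summed TPM of the unigenes of any length in 6 lists (vertical axes from 0), one point per library and a line at the mean of each species. Photosynthesis, carbon fixation and diterpenoid biosynthesis are lower in all 3 *T. mairei* libraries, and defense response, transcription factor activity and response to jasmonic acid are higher. The TIFY9 unigene comp22595_c0 counts in both the defense response and the jasmonic acid sums.

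The markers of tissues in a twig moved with these lists. Of 59 named unigenes of needle photosynthesis markers, a list that overlaps the photosynthesis pathway, 30 (50.8%) were lower and 2 (3.39%) higher, with sums of 5526 to 9678 TPM in *T. mairei* and 32292 to 86340 TPM in the others. Of 5 markers of wood and secondary walls, 2 (40.0%) were higher and 0 lower, with sums of 82.5 to 112.7 TPM against 43.6 to 52.0 TPM. A CESA4 unigene of 238 bp gave 27.5 to 42.3 TPM of the *T. mairei* sums. The other 3 named members, CESA7, XCP2 and IRX10L, were not higher, and CESA7 had 0.51 to 1.19 TPM in *T. mairei* and 4.27 to 9.97 TPM in *T. cuspidata*. Of the 2 KEGG orthologs found in the list, 0 were higher and 2 lower on deposited TPM, and 1 lower on scaled TPM. These totals take in unigenes of the ortholog outside the list, and so are not totals of wood markers. The secondary wall cellulose synthase CESA8 (comp28115_c0) had 26.6, 25.7 and 34.4 TPM in *T. mairei*, 15.3, 13.4 and 14.8 TPM in *T. media* and 12.2, 12.1 and 12.3 TPM in *T. cuspidata*, a change of 1.64 ± 0.09. IRX9H (comp28210_c0), named for xylan synthesis, had 13.3 to 14.9 TPM in *T. mairei* and 8.55 to 11.9 TPM in the 6 others, and its call was lost in limma on the deposited TPM, where the log2 difference was 0.51. Of 5 markers of dividing cells, 2 were lower and 0 higher (59.7 to 72.8 TPM against 135.0 to 164.5 TPM). Most of these sums came from a CYCB1-2 unigene (comp22173_c0) that was not called. Of 9 phloem markers 4 were lower and 0 higher (174.3 to 242.0 TPM against 238.2 to 393.9 TPM). On scaled TPM the phloem sums overlapped, with 245.1 to 323.8 in *T. mairei* and 214.8 to 314.9 in the others. The lower phloem members were APL unigenes and PP2A15, while another APL unigene, PP2A1, PP2A2, PP2A4 and PP2A10 were not lower. Counting unigenes of any length, 25 of 102 needle markers, 1 of 12 phloem markers, 1 of 10 dividing cell markers and 0 of 7 wood markers were at 0 in all *T. mairei* libraries. These zeros were not particular to *T. mairei*, as 20 of the 25 needle markers had TPM in *T. media* replicate 1 only and the dividing cell marker, a CYCB1-2 unigene, was at 0 in all 9 libraries. In these bulk twigs, fewer cells of a type and less RNA per cell cannot be told apart, and the part of tissue makeup in the results was not tested.

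The diterpenoid pathway covers both taxanes and the gibberellin hormones. Of 14 named unigenes of diterpenoid biosynthesis, 7 were lower and 0 higher, with a median log2 fold change of -1.70 and sums of 235.4, 343.7 and 210.6 TPM in *T. mairei* against 984.4 to 1250 TPM in the others. The 3 most abundant lower members carry the KEGG annotation of gibberellin 20-oxidase, an enzyme of the gibberellin hormones, and not of a taxane enzyme. GA2OX7 (comp29190_c1), by its name an enzyme that inactivates gibberellins, had 38.5, 22.6 and 43 TPM in *T. mairei*, 252, 498 and 467 TPM in *T. media* and 845, 719 and 645 TPM in *T. cuspidata*, a change of -3.51 ± 0.38 (adjusted p = 0.00012). The unigene named 20ox1 (comp30166_c0), a gibberellin 20-oxidase, had 1.89, 3.52 and 2.64 TPM in *T. mairei*, 329, 229 and 232 TPM in *T. media* and 104, 182 and 196 TPM in *T. cuspidata*, a change of -5.58 ± 0.45.

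Under the GO term for paclitaxel biosynthesis, 4 of 19 named unigenes (21.1%) were higher and 3 (15.8%) lower, beside 13.5% and 20.2% of all members. By edgeR alone, 10 of the 19 were called higher and 3 lower, beside 20.0% and 21.5% of all members tested. The median log2 fold change of the list was 1.42. The summed TPM overlapped, with 1549 to 4834 in *T. mairei*, 752.8 to 903.3 in *T. media* and 2336 to 4329 in *T. cuspidata*. The acetyltransferase TAT (comp14263_c0) of the early taxane pathway had 50.8, 98.0 and 82.3 TPM in *T. mairei* and 0 in all 6 others, at least 14602-fold higher against 3 counts over the 6 libraries, a limit that covers counting error only. Its name total over 2 unigenes was 119.7 to 230.1 TPM in *T. mairei* and 45.8 to 389 TPM in the 6 others, separated on neither scale. None of the 7 unigenes had a name total that went the same way on scaled TPM. CYP725A1, the taxane 10-beta-hydroxylase, and CYP725A2, the taxane 13-alpha-hydroxylase, had unigenes on both sides. CYP725A1 was higher on comp21852_c0 (36 to 76.1 TPM in *T. mairei* and 0.25 to 14.1 TPM in the 6 others) and lower on comp16662_c0 (5.27 to 10.2 TPM in *T. mairei*, 15 to 16.1 TPM in *T. media* and 38.1 to 55.2 TPM in *T. cuspidata*), where the log2 fold change was -0.12 ± 0.29 against *T. media* (adjusted p = 0.75) and -2.62 ± 0.32 against *T. cuspidata*, and which was not separated on scaled TPM. CYP725A2 was higher on comp16461_c0 (25.3 to 80.9 TPM in *T. mairei* and 0.26 to 9.86 TPM in the 6 others) and lower on comp26274_c0 (2.4 to 7.7 TPM in *T. mairei*, 75.2 to 153 TPM in *T. media* and 178 to 282 TPM in *T. cuspidata*) and comp27610_c1, which was not called against *T. media* and whose call was lost without *T. mairei* replicate 1. The CYP725A1 total over 37 unigenes was 500.4, 1778 and 688 TPM in *T. mairei*, 353, 231 and 249 TPM in *T. media* and 566, 1087 and 809 TPM in *T. cuspidata*, and the CYP725A2 total over 12 unigenes was 175, 352 and 96.2 TPM in *T. mairei*, 286, 291 and 276 TPM in *T. media* and 248, 412 and 363 TPM in *T. cuspidata*. Neither total was separated, and *T. mairei* replicate 2 was the highest library of its species in both.

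Isoprenoid precursor supply had 4 higher (12.9%) and 5 lower (16.1%) of 31 unigenes, beside 13.5% and 20.2% of all members. The reductase ISPH, the last step of the plastid MEP pathway, was higher on comp21767_c0 (72.8 to 124 TPM in *T. mairei*, 7.78 to 12.1 TPM in *T. media* and 0 to 0.03 TPM in *T. cuspidata*) and on comp14033_c0, which was at 0 in all 6 others. ISPF (comp72885_c0), a mid-pathway cyclase, was higher on a 565 bp unigene with 57.3 to 94.8 TPM in *T. mairei*, 18.3 to 22.9 TPM in *T. media* and 0 TPM in *T. cuspidata*. ISPG (comp69069_c0), the synthase before ISPH, was lower with 15.6 to 37.1 TPM in *T. mairei* and 104 to 155 TPM in the 6 others, and neither the ISPF nor the ISPG name total was separated. Lower members outside the pathway proper were CHLP (comp17400_c0), which supplies the chlorophyll side chain, with 16.5 to 20.4 TPM in *T. mairei* and 64 to 137 TPM in the 6 others, and DHDDS (comp22093_c0), a dolichol synthase, with 5.55 to 6.31 TPM in *T. mairei* and 45 to 157 TPM in the 6 others.

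Among the phenolic pathways, flavonoid synthesis had 16 lower (33.3%) and 7 higher (14.6%) of 48 unigenes, with a median log2 fold change of -0.76. Phenylpropanoid synthesis had 24 lower (24.0%) and 19 higher (19.0%) of 100, with a median of 0.37. Its shares lay above those of all members in each direction, which were 20.2% lower and 13.5% higher. By edgeR alone 28 were lower and 32 higher. Phenylalanine metabolism, which feeds both pathways, had 15 lower (23.8%) and 11 higher (17.5%) of 63, with a median of 0.15. Restricted to unigenes whose name total went the same way on scaled TPM, an alternative chosen after seeing the data, the flavonoid unigenes numbered 5 lower and 4 higher. CCR2 (comp26102_c1), a cinnamoyl-CoA reductase at the entry to lignin, had 16.3, 11.7 and 16.7 TPM in *T. mairei*, 595, 546 and 655 TPM in *T. media* and 764, 1193 and 1252 TPM in *T. cuspidata*, a log2 change of -5.17 ± 0.32 (adjusted p = 7e-06). ROMT-15 (comp24815_c0), annotated as a caffeoyl-CoA O-methyltransferase, had 1.36, 0.82 and 2.36 TPM in *T. mairei*, 1272, 1086 and 1325 TPM in *T. media* and 25.1, 28.5 and 42.5 TPM in *T. cuspidata*. Its change was -9.44 ± 0.46 against *T. media* and -4.26 ± 0.36 against *T. cuspidata*, and its name total was not separated on scaled TPM. CYP73A14 (comp27906_c0), the cinnamate 4-hydroxylase of the common entry, was higher with 54.2 to 110.2 TPM in *T. mairei*, 9.67 to 16 TPM in *T. media* and 1.03 to 1.58 TPM in *T. cuspidata*, a change of 5.06 ± 0.28. The peroxidase PER12 (comp10385_c0) was higher with 275, 245 and 73.8 TPM in *T. mairei*, 20.2, 1.52 and 5.11 TPM in *T. media* and 43.5, 18.6 and 29.9 TPM in *T. cuspidata*, a change of 4.65 ± 0.67. LDOX, a dioxygenase of anthocyanidin synthesis, was higher on comp17496_c0 (187 to 337 TPM in *T. mairei*, 62.1 to 106 TPM in *T. media* and 103 to 148 TPM in *T. cuspidata*) and lower on comp29149_c0 (5.58 to 9.42 TPM in *T. mairei*, 350.5 to 408 TPM in *T. media* and 106 to 266 TPM in *T. cuspidata*), and its name total was not separated.

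In sugar metabolism, 24 unigenes were higher (16.2%) and 27 lower (18.2%) of 148, beside 13.5% and 20.2% of all members. The starch synthase WAXY (comp24599_c0) was lower with 7.94, 8.35 and 13 TPM in *T. mairei*, 663, 620.4 and 604 TPM in *T. media* and 89.7, 104 and 105 TPM in *T. cuspidata*, a change of -4.28 ± 0.17, and the beta-glucosidase BGLU13 (comp29871_c0) with 0.19 to 0.55 TPM in *T. mairei*, 355 to 535 TPM in *T. media* and 122 to 126 TPM in *T. cuspidata*, while its name total was not separated. The pectinesterase PME2 (comp30370_c0), which de-esterifies cell wall pectin, was higher with 108 to 113 TPM in *T. mairei*, 2.04 to 4.95 TPM in *T. media* and 23.3 to 28.3 TPM in *T. cuspidata*. In glutathione metabolism 11 were higher (20.8%) and 13 lower (24.5%) of 53. The glutathione transferase GSTF13 stood on both sides. It had 1321 to 2825 TPM in *T. mairei* and 183 to 318 TPM in the 6 others on comp27332_c0. On comp27138_c1 it had 101 to 135 TPM in *T. mairei* and 724 to 1795 TPM in the 6 others. Of 49 clock unigenes 6 were higher (12.2%) and 10 lower (20.4%). GI (comp25422_c0) had 23.2, 20.5 and 18.8 TPM in *T. mairei*, 5.64, 6.4 and 5.95 TPM in *T. media* and 3.17, 2.69 and 2.04 TPM in *T. cuspidata*, a change of 3.12 ± 0.14. LHY (comp30528_c0), which peaks near dawn in *Arabidopsis* while GI peaks near dusk, had 3.37, 6.11 and 2.74 TPM in *T. mairei*, 77.9, 71.2 and 75.4 TPM in *T. media* and 37, 51.7 and 40.6 TPM in *T. cuspidata*, a change of -2.91 ± 0.20. The hour of harvest of each species is not given in the sources used here.

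Of 51 ABC transporter unigenes, membrane pumps for hormones, lipids and toxins, 16 (31.4%) were lower and 4 (7.84%) higher. Their summed TPM were 464.5 to 483.5 in *T. mairei* and 722.9 to 1081 in the others. On scaled TPM they overlapped, with 621.6 to 656.0 in *T. mairei* and 652.0 to 904.6 in the others. ABCG11 (comp29675_c0), which exports cuticle lipids in *Arabidopsis*, had 5.12, 5.11 and 3.99 TPM in *T. mairei*, 87.6, 90.7 and 82.5 TPM in *T. media* and 72, 58.1 and 57 TPM in *T. cuspidata*, a change of -4.28 ± 0.21. ABCG22 (comp30268_c0), a transporter of stomatal guard cells in *Arabidopsis*, had 0.09, 0.08 and 0.15 TPM in *T. mairei*, 55, 60.8 and 56.4 TPM in *T. media* and 27.4, 26 and 23.4 TPM in *T. cuspidata*, a change of -7.95 ± 0.15 (adjusted p = 3.5e-07).

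Of 212 ribosome unigenes 83 (39.2%) were lower and 39 (18.4%) higher. Summed over KEGG orthologs on scaled TPM, 30 of 118 ribosomal proteins were higher and 26 lower, and 22 lower and 16 higher unigenes had a name total that went the same way. Some ribosomal protein unigenes were nearly absent from a species, such as RPS18A (comp10368_c0), with 337 to 387 TPM in *T. mairei*, 171 to 194 TPM in *T. media* and 0 to 0.17 TPM in *T. cuspidata*. RPS27B had a unigene in each of 3 patterns. Unigene comp19616_c0 had 375 to 631 TPM in *T. mairei*, 131 to 159 TPM in *T. media* and 0 to 0.16 TPM in *T. cuspidata*, comp21798_c0 had 17.9 to 62.5 TPM in *T. mairei*, 217 to 326 TPM in *T. media* and 1076 to 1126 TPM in *T. cuspidata*, and comp102802_c0 was at 0 in *T. mairei* with 87.7 to 199.5 TPM in the others. Its total over 4 unigenes was not separated. Of 49 proteasome unigenes 1 was higher (CDC48D, comp18999_c0) and 0 lower by edgeR and separation, and edgeR alone called 1 higher and 0 lower. Ubiquitin mediated proteolysis had 11 higher (9.32%) and 15 lower (12.7%) of 118, and oxidative phosphorylation 13 (13.1%) and 16 (16.2%) of 99. Protein kinases, the longest list with 748 unigenes, had 142 higher (19.0%) and 185 lower (24.7%), but 120 higher and 58 lower when the name total had to go the same way on scaled TPM. The 3 most abundant higher members, comp27280_c0 (PERK2), comp27477_c0 (PERK9) and comp29252_c0 (PERK8), were 677 to 780 bp long and named for proline-rich receptor kinases. PERK2 had 1715, 1942 and 4042 TPM in *T. mairei*, 17.2, 5.57 and 6.95 TPM in *T. media* and 0.72, 0.3 and 0.65 TPM in *T. cuspidata*, and its KEGG annotation is a DNA methyltransferase, so the name and the ortholog do not match. The lists for plant hormone signal transduction, for cutin, suberine and wax and for protein processing in the endoplasmic reticulum had 0 unigenes in the deposited annotation.

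Beside PSBR, psbW, LHCB5 and ROMT-15, the 8 lowest fold changes were those of PCKR1, CAT2 and RBP31. PCKR1, a peptidylprolyl isomerase that helps proteins fold, had 7.94, 6.15 and 7.83 TPM in *T. mairei*, 1365, 1589 and 1449 TPM in *T. media* and 1569, 2140.5 and 2537 TPM in *T. cuspidata* on comp23777_c0, a log2 fold change of -7.30 ± 0.34 (adjusted p = 1.7e-06), and a second PCKR1 unigene (comp25667_c0) had 2.28 to 4.34 TPM in *T. mairei*, 148 to 222 TPM in *T. media* and 808 to 1604 TPM in *T. cuspidata*. CAT2 (comp25257_c0), a catalase that breaks down hydrogen peroxide, had 6.05, 4.59 and 5.45 TPM in *T. mairei*, 354, 553 and 437 TPM in *T. media* and 844, 934 and 879.7 TPM in *T. cuspidata*, a change of -6.23 ± 0.30. The CAT2 total over 4 unigenes differed far less, with 231 to 285 TPM in *T. mairei* and 557 to 945 TPM in the 6 others. RBP31 (comp24848_c0), a chloroplast RNA-binding protein, had 5.2 to 6.0 TPM in *T. mairei*, 334 to 439 TPM in *T. media* and 814 to 968 TPM in *T. cuspidata*, a change of -6.03 ± 0.22.

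Among names with at least 2 unigenes, the lowest ratio of gene-name totals was that of PAB5, a poly(A)-binding protein, with 71.2, 61.5 and 66 TPM in *T. mairei*, 8972, 13729 and 13614 TPM in *T. media* and 2521, 1937 and 2726 TPM in *T. cuspidata*. Nearly all of it came from comp23708_c0, whose edgeR log2 fold change of -3.91 ± 0.36 was smaller in size than the -6.30 of the same contrast of scaled TPM, so the 2 units give different sizes. CYP735A2, a cytokinin hydroxylase, summed to 4.5 to 6.69 TPM in *T. mairei* and 237 to 375 TPM in the 6 others. LOX5 summed to 10.5 to 39.2 TPM in *T. mairei* and 644 to 1382 TPM in the 6 others, and the leaf polarity factor YAB5 to 1.57 to 2.57 TPM in *T. mairei* and 56.3 to 96.1 TPM in the 6 others.

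Unigenes at 0 on a side mark the limits of the comparison. Among all 9619 members, 105 were at 0 in all 6 libraries of the other yews and 88 in all 3 of *T. mairei*, with 3 at 0 in all 9. The most abundant of the former were RCA (comp38336_c0), ADF7 (comp15206_c0) and At1g23740 (comp20734_c0). ADF7, an actin-depolymerizing factor, had 378, 407 and 323 TPM in *T. mairei*, at least 46734-fold higher against 3 counts over the 6 others. At1g23740, a chloroplast oxidoreductase, had 281, 408 and 344 TPM. For RCA and At1g23740 the bounds were at least 17154-fold and at least 21281-fold. The pectinesterase PME47 (comp29419_c0) was at 0 in *T. mairei* and had 65.8 to 174.9 TPM in the others, at least 2303-fold lower against 3 counts over the 2 *T. mairei* libraries with counts.

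Unigene comp10334_c0 (6665 bp), named ORF1 for an open reading frame, was at 0 in *T. mairei* but not separated from both other yews, and did not pass the filter on low counts. It had 1375 TPM in *T. cuspidata* replicate 1 and at most 0.03 TPM in the other 8 libraries, and a second ORF1 unigene (comp17342_c0, 6403 bp, chosen after its values were seen) had 176 TPM in that library alone. Also chosen after their values were seen were comp36366_c0 (named F) and comp35098_c0 (named A), both 5386 bp long. F had 0 TPM in all *T. mairei* libraries, 132, 85.6 and 55.5 TPM in *T. media* and 95.8, 14.6 and 14.6 TPM in *T. cuspidata*. A had 0 TPM in *T. mairei*, 112, 71.1 and 49.0 TPM in *T. media* and 79.0, 11.4 and 10.2 TPM in *T. cuspidata*. Both count among the 1940 lower unigenes. Their length is that of the phage phiX174, a common control in Illumina runs whose genes have single-letter names, and their origin was not tested.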

How the data were processed

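Poly(A) RNA of 9 twig libraries was sequenced, and the authors co-assembled the reads of the 3 species with Trinity 2.4.0, the version in the methods. The aligner and counter are not given in the sources used here. Expected counts per unigene were deposited by the authors for 8 libraries, TPM for all 9, and RPKM for *T. mairei* replicate 3 alone. RPKM values, deposited without counts, served only to recover its reads in an alternative. TPM is relative to a fixed total, so a change in abundant unigenes shifts the rest.

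Members, lists and tests were chosen with earlier results of these data known. The counts, rounded to whole numbers, went into the quasi-likelihood test of edgeR 4.0.16 (R 4.3.3), normalized by TMM and filtered by filterByExpr within species, with each species fitted as a group of its own, over all 32624 unigenes that passed, with Benjamini-Hochberg adjustment. The planned 9-library fit held 8 libraries. The common biological coefficient of variation was 0.37. The library sizes were 32783233 to 44821305 counts. Alternatives used limma 3.58.1, DESeq2 1.42.0, other scalings, filters and lengths, and each library left out. Lists were KEGG pathways, GO terms and gene names of the deposited annotation. Named unigenes were the 8 highest and 8 lowest fold changes with at least 0.5 TPM in all libraries, the 6 highest and 6 lowest gene-name totals, up to 3 of the most abundant per list and direction, and 3 at 0 on either side. Others are marked as chosen after their values were seen. The fit was also tested on simulated data. No sequence was used here. Values of 1 gene that the naming rule reached are not reported here.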

Additional observations from a re-analysis of the deposited data

How the results depend on the processing

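No fold change of a named unigene reversed under any alternative run. Most were named for being separated and called, so this was largely fixed by the choice. On TPM the counts depend on the scale: separation after scaling gave 2541 higher and 2646 lower, and gene-name totals 2169 and 1656. limma on log2(TPM + 1) called 1254 higher and 3476 lower and, with separation, 3208 lower. With a pseudocount of 0.1 the lower counts were 3826 and 3503. KEGG ortholog totals in place of gene-name totals gave 250 higher (11.9%) and 1105 lower (52.7%) of 2095, beside 14.3% and 45.3% of the 7483 names. A gap of at least 2 times between the groups left 797 higher and 1865 lower unigenes, and 527 and 1071 name totals. With a minimum length of 1000 bp the higher unigenes numbered 1091 by edgeR, 751 by separation and 726 by both, and with named unigenes of any length 3258, 2326 and 2272. These length settings also change how many unigenes are counted. With totals over unigenes of at least 500 bp, 677 of 6380 names were higher. Of the lower unigenes, 1155 had a name total that was lower on scaled TPM, an alternative chosen after seeing the data.

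With 1 library left out, edgeR called 1811 to 1977 higher and 1884 to 2104 lower, separation gave 1337 to 1478 higher and 4922 to 5095 lower, both together 1290 to 1425 and 1809 to 2001, and name totals 1081 to 1221 and 3442 to 3578. Leaving out a library can only keep or add separated unigenes and totals, so the ranges of separation cannot show a loss. Same-numbered libraries did not deviate together (every correlation was under 0.1 in size), so the numbers do not pair them. A replicate block gave 1874 higher and 1972 lower by edgeR and 1285 and 1869 with separation, of which 1282 and 1848 were among the main calls. Of 161 named unigenes, 28 lost the call under at least 1 alternative. Leaving out 1 library ended the calls of ABCC5, of CYP725A2 (comp27610_c1, -1.62 without *T. mairei* replicate 1) and of ROMT-15 (comp19510_c0, -1.0 without *T. mairei* replicate 2). The causes were not tested.

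*T. mairei* replicate 3 entered only the TPM values. Counts near 0 limit the fold changes of unigenes found in a single species, and unigenes of near-identical copies can share reads.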
